A study of Mus musculus with 18 samples.

Results

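The genes described here are 10 members of Wnt signalling, namely the ligands Wnt5a and Wnt5b, the receptors Fzd1, Fzd2, Fzd7 and Ror2, the secreted proteins Sfrp1, Sfrp2 and Dkk3, and the target gene Axin2. They were picked by symbol, ignoring case, and all 10 were found among the 24420 symbols present in the count tables of both cell lines. GFP-tagged mouse cancer cells were grown as hanging-drop spheroids, alone or with 3 fibroblasts per cancer cell, and sorted for GFP before RNA sequencing, per the methods. Another passage of the study places GFP in the fibroblasts, and the count tables do not show which cells carried it. In the breast cancer line 168FARN the partners were cancer-associated fibroblasts (MMTV-CAFs) from tumours of MMTV-PyMT mice, which carry a viral oncogene driven by a mammary promoter. In the lung cancer line LLC1 the partners were wound healing fibroblasts, isolated from mouse skin on day 10 after wounding. WT fibroblasts carried the control guide sgNS, and sgPrrx1 fibroblasts carried a guide that deleted Prrx1, a transcription factor gene of mesenchymal cells, with CRISPR/Cas9. Both lines were sampled alone, in WT coculture and in sgPrrx1 coculture, at 3 libraries each (18 in all), and the question was how cancer cells responded to fibroblasts with and without Prrx1. The cancer cells themselves were not edited, so Prrx1 does not check the labels. It stood at 87.2 to 89.7 CPM in 168FARN alone (CPM is the count scaled to a common library size), 128 to 130 in WT coculture and 111 to 113 in sgPrrx1 coculture, and at 114 to 227 CPM over the LLC1 libraries.

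Library totals ranged from 48315037 to 68933002 counts in 168FARN and from 66129117 to 103997557 in LLC1. Replicates were separate samples by their labels, and nothing showed that they came from separate animals or cultures, so the p-values measure only the spread between these samples. That spread was a biological coefficient of variation of 0.0728 in 168FARN and 0.228 in LLC1. Replicate 3 of LLC1 sgPrrx1 coculture stood apart: its log2 CPM correlated with its replicates at 0.949 and 0.95, against 0.991 between the other two, so LLC1 counts of calls, and members whose call changes, are also given without it. Of 10 epithelial markers, Cldn7 and Esrp1 had no counts in any 168FARN group, Epcam had none in 168FARN alone, and the list summed to 329 to 433 CPM in 168FARN and to under 1 CPM in every LLC1 library. In bulk RNA of this kind, fewer cells of a type and less RNA per cell cannot be told apart.

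Wnt proteins are secreted lipid-modified ligands. They bind Frizzled receptors, and with the co-receptors Lrp5 and Lrp6 they stabilise beta-catenin, which switches on target genes such as Axin2. Wnt5a and Wnt5b mostly act without beta-catenin, through Frizzled receptors with Ror2, and are known for guiding cell polarity and movement. The Sfrp proteins bind Wnts outside the cell, and fibroblasts are known to secrete both Wnt5a and Sfrp proteins.

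In build GRCm38.p6 the ligand genes lie at chr14:28504543-28527448 (Wnt5a) and chr6:119432531-119544824 (Wnt5b). The receptor genes lie at chr5:4753839-4758216 (Fzd1), chr11:102604431-102608058 (Fzd2), chr1:59482147-59486955 (Fzd7) and chr13:53109317-53286124 (Ror2). The genes of secreted proteins lie at chr8:23411383-23449632 (Sfrp1), chr3:83765750-83774314 (Sfrp2) and chr7:112116019-112159482 (Dkk3), and Axin2 lies at chr11:108917828-108950783. The tables give 1 count per gene, so exons and UTRs cannot be separated. Promoter windows from RefSeq (GRCm38.p6), running from 250 bases before to 50 bases after an annotated start, matched 6 of the 10 members in 8 windows. Those of Fzd1, Ror2 and Sfrp2 are shown because these receptor and inhibitor genes appeared in 168FARN libraries with coculture, and a Wnt5b window because it holds the only motif match. Each is written 5′ to 3′ on the strand of its gene, with capitals marking a motif match. The motifs searched on both strands were CTTTGAT, a core recognised by the Tcf and Lef factors that act with beta-catenin, and TAATTA, a homeodomain core.
Wnt5b, chr6:119449337-119449636, minus strand: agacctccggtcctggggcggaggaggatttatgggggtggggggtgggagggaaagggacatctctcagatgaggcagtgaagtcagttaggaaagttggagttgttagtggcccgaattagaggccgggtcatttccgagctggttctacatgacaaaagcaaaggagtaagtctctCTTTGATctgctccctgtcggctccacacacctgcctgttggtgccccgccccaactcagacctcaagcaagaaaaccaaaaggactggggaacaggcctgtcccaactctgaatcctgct
Fzd1, chr5:4758167-4758466, minus strand: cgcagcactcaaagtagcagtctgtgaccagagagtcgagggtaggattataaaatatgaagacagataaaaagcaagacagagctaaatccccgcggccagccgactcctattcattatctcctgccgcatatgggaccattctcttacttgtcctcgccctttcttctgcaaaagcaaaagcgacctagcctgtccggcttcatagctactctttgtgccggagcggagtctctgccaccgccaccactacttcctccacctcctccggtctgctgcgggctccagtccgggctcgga
Ror2, chr13:53286075-53286374, minus strand: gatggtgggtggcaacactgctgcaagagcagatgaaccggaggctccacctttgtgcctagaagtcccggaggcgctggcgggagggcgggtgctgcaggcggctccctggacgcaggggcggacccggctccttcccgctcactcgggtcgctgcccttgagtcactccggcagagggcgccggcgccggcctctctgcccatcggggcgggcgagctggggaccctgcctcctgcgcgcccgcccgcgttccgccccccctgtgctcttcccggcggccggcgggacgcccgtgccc
Sfrp2, chr3:83766071-83766370, plus strand: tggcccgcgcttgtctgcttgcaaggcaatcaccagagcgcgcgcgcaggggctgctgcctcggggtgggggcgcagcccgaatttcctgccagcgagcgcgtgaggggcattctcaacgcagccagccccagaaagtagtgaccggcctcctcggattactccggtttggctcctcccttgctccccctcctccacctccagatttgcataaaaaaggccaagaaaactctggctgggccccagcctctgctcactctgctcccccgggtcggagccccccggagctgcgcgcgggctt
CTTTGAT occurred in 1 of the 8 windows, the Wnt5b window shown, against 3.73% of 32851 promoter windows of the same length. TAATTA occurred in none of the 8, against 5.29% of all windows.

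In 168FARN, 8 of the 10 genes differed between WT coculture and cells alone. Wnt5a, Fzd1, Fzd2, Ror2, Sfrp1 and Sfrp2 were higher than in cells alone, Wnt5b and Fzd7 were lower, and Axin2 and Dkk3 did not pass the test. The background was high: 33.4% of all 13540 genes tested were higher and 30.7% lower (edgeR, adjusted p under 0.05). Coculture with sgPrrx1 CAFs left Fzd1, Ror2, Sfrp1, Sfrp2 and Dkk3 higher than in cells alone and Fzd7 lower, with 25.7% of all genes higher and 24.1% lower. Between the 2 cocultures, Wnt5b and Sfrp2 were higher with sgPrrx1 than with WT CAFs, and Wnt5a, Fzd1, Fzd2, Fzd7 and Ror2 were lower, 2 and 5 genes against backgrounds of 26.9% higher and 33.1% lower. These comparisons share libraries, WT coculture entering the first and last, so they are not independent of each other. Separation of the libraries of compared groups was common among all genes tested. In 168FARN, 68.3% of them had no overlap for WT against alone, 59.4% for sgPrrx1 against alone and 66.2% for sgPrrx1 against WT. In LLC1 these shares were 53.2%, 32.4% and 23.6%. A lack of overlap is therefore given below only as a description.

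**Figure D1:**
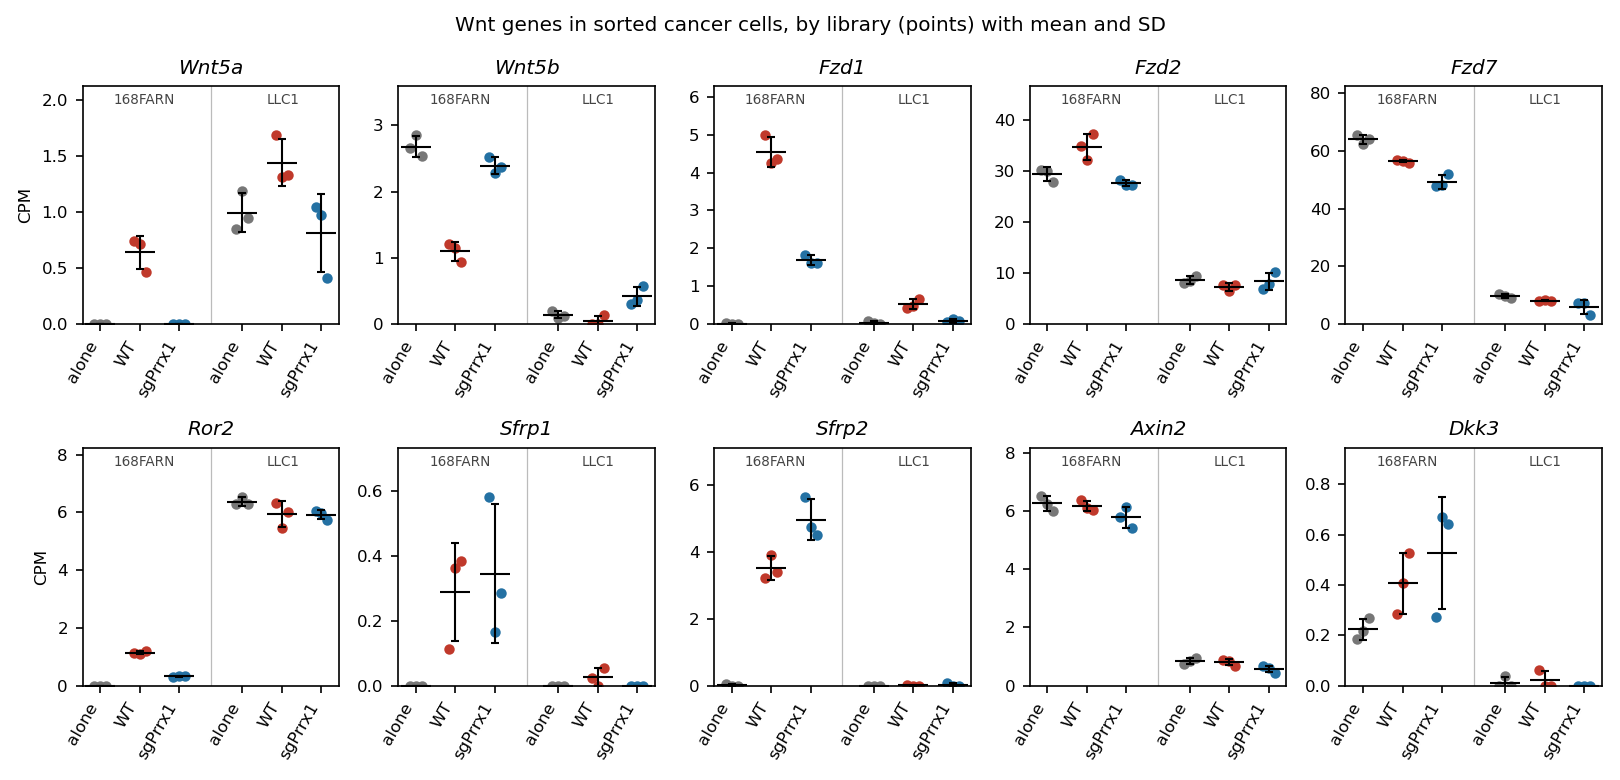
Level of each of the 10 genes, in CPM on the vertical axes (each panel has its own scale), in the alone, WT and sgPrrx1 groups of 168FARN and LLC1. Points are libraries, and bars are the mean and SD of 3. Wnt5a, Fzd1, Ror2, Sfrp1 and Sfrp2 sit at or near 0 in 168FARN alone, and Wnt5a is again at 0 with sgPrrx1 CAFs.

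Fibroblast genes also differed between the groups. Of 22 fibroblast markers, 20 were tested in 168FARN, and from cells alone to WT coculture 18 rose and 1 fell, from alone to sgPrrx1 coculture 11 rose and 3 fell, and 19 were lower and 0 higher with sgPrrx1 than with WT CAFs. Their summed level was 855 to 866 CPM alone, 2056 to 2171 CPM in WT coculture and 802 to 804 CPM in sgPrrx1 coculture. Thy1, Fbln1 and Postn had no counts in 168FARN alone, Thy1 and Lum had none in sgPrrx1 coculture, and Fap had none in either coculture.

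In 168FARN, 5 of the 10 Wnt genes and 5 of the fibroblast markers had a mean in cells alone of under 1% of that in WT coculture, a limit chosen after the values were seen. In sgPrrx1 coculture the markers kept from 0% (Thy1) and 0.101% (Postn) over 6.92% (Fbln1) and 8.68% (Col1a2) to 46.7% (Dcn) of their WT coculture mean. The Wnt genes kept 0% (Wnt5a), 28.2% (Ror2), 37.2% (Fzd1), 120% (Sfrp1) and 141% (Sfrp2). The limit picks genes by a high level in WT coculture, the same level that the percentages are taken of, so these are descriptions with no test. The Sfrp1 percentage rests on 0.346 ± 0.214 CPM in sgPrrx1 coculture (SD, n = 3) against a WT mean of 0.288. The part of fibroblast RNA in these results was not tested. Of 4 epithelial markers tested in 168FARN, 4 rose and 0 fell from cells alone to WT coculture, 2 rose and 0 fell from alone to sgPrrx1 coculture, and 1 was higher and 2 lower with sgPrrx1 than with WT CAFs. The epithelial list summed to 329 to 352 CPM alone, 373 to 400 CPM in WT and 427 to 433 CPM in sgPrrx1 coculture. Krt19, a keratin of that list, had the same pattern of zeros as Wnt5a, with 143 to 224 counts per library in WT coculture (3.09 ± 0.162 CPM, SD, n = 3) and 0 counts in every library of the other two groups. Its part in the Wnt5a result was not tested. In 168FARN 7 macrophage genes summed to 29.3 to 51.9 CPM, highest in cells alone, with Ptprc at 0 in all groups. Of 4 tested, 1 was higher (Csf1r, by log2 values of 1.80 and 1.96) and 2 were lower (Cd68 and Lyz2) in WT and in sgPrrx1 coculture than alone, and 1 was higher (Lyz2) and 0 lower with sgPrrx1 than with WT CAFs. The 5 endothelial genes summed to 0.637 to 0.748 CPM alone, 5.88 to 7.06 in WT and 4.13 to 4.72 in sgPrrx1 coculture, with 1 of 3 tested genes (Cdh5) higher in either coculture than alone. With sgPrrx1 against WT CAFs, 0 were higher and 1 was lower (Cdh5, log2 fold change -0.60, adjusted p = 0.00681).

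**Figure D2:**
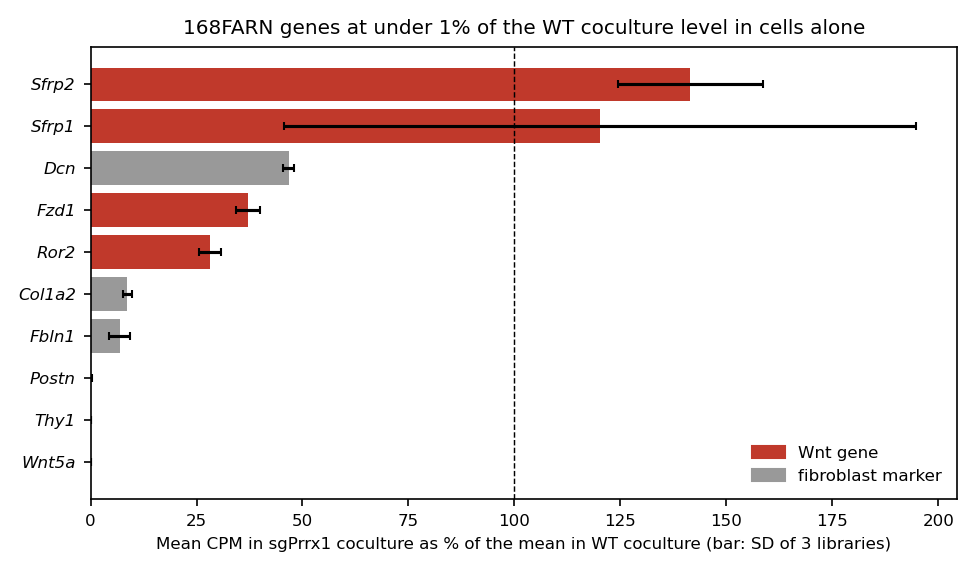
Mean CPM in 168FARN sgPrrx1 coculture as a percentage of the mean in WT coculture (horizontal axis, bars from 0, error bars the SD of 3 sgPrrx1 libraries), for the Wnt genes (red) and fibroblast markers (grey) at under 1% of the WT coculture level in cells alone. The dashed line marks 100%. Wnt5a, Thy1 and Postn are at or near 0, Sfrp1 and Sfrp2 are the bars beyond the line, and the error bar of Sfrp1 reaches back across it.

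Wnt5a, the ligand best known for signalling through Ror2, had counts only with WT CAFs among the 9 libraries of 168FARN. Its counts were 0 in all 3 libraries alone, 52, 49 and 23 in WT coculture, and 0 in all 3 libraries of sgPrrx1 coculture. These counts were 0.640 ± 0.151 CPM (SD, n = 3) in WT coculture, and the groups did not overlap. Against a floor of 3 counts per library, the WT level was at least 11.3-fold higher than in cells alone (adjusted p = 0.000172), and the sgPrrx1 level at least 11.7-fold lower than the WT level (adjusted p = 0.000190). A count of 0 allows up to 3 counts per library, so absence is not shown, and such floors cover counting error only.

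Wnt5b, its close relative, went the other way in 168FARN. Its level was 2.65, 2.85 and 2.53 CPM in cells alone, 1.21, 1.15 and 0.933 CPM with WT fibroblasts and 2.52, 2.27 and 2.37 CPM with sgPrrx1 fibroblasts. The WT libraries lay below all others. The log2 fold change was -1.28 (SE 0.147, adjusted p = 1.78e-05) from alone to WT coculture and 1.11 (SE 0.148, adjusted p = 6.82e-05) from WT to sgPrrx1 coculture. Cells alone and sgPrrx1 coculture differed by -0.17 (SE 0.139, adjusted p = 0.341). Neither Wnt5b call was kept when the fold itself was required to exceed a log2 value of 1 (adjusted p = 0.166 for alone to WT). The longest exact run that the Wnt5a and Wnt5b transcripts share is 29 bases, shorter than the 100-base reads.

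In LLC1 both ligands were present, and neither passed the test by edgeR. By limma voom with quality weights both did, for WT against alone (adjusted p = 0.00688 for Wnt5a, 0.00167 for Wnt5b) and for sgPrrx1 against WT (0.0165 and 0.00138). Wnt5a was at 0.849, 1.19 and 0.95 CPM alone, 1.69, 1.31 and 1.33 CPM with WT fibroblasts and 1.05, 0.975 and 0.411 CPM with sgPrrx1 fibroblasts. Every WT library lay above the others, but the log2 fold changes were 0.53 (SE 0.331, adjusted p = 0.377) for WT against alone and -0.81 (SE 0.333, adjusted p = 0.389) for sgPrrx1 against WT. The lowest value was that of replicate 3 of sgPrrx1, and without that library the values became 0.55 (SE 0.197, adjusted p = 0.0508) and -0.52 (SE 0.220, adjusted p = 0.160). Wnt5b gave 16, 8 and 10 counts alone, 0, 0 and 10 in WT coculture, and 33, 31 and 34 in sgPrrx1 coculture. Its sgPrrx1 libraries were above all the others, with a log2 fold change of 3.19 over WT coculture (SE 0.978, adjusted p = 0.304), and WT coculture differed from cells alone by -1.66 (SE 1.04, adjusted p = 0.381), a contrast that passed without replicate 3 of WT (adjusted p = 0.0488). The WT counts of Wnt5b all came from that library, so without it WT coculture is at 0 counts and no fold against it is given.

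Fzd1, a Frizzled receptor, was almost without counts in cells alone in both lines and higher with WT fibroblasts in both. In 168FARN its counts were 1, 0 and 0 alone, 351, 292 and 215 in WT coculture and 88, 96 and 96 in sgPrrx1 coculture. The 3 groups did not overlap and their means were 0.00685, 4.54 ± 0.393 and 1.69 ± 0.128 CPM (SD, n = 3). From this 1 count, the ratio of WT coculture to alone was 736 (95% Poisson interval 132 to 29110, adjusted p = 4.18e-09), and that of sgPrrx1 coculture to alone was 271 (48.2 to 10738, adjusted p = 7.99e-08). Between the cocultures the log2 fold change was -1.43 (SE 0.157, adjusted p = 1.57e-05). This call was lost when the fold itself had to exceed a log2 value of 1 (adjusted p = 0.0790).

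In LLC1, Fzd1 gave 6, 3 and 0 counts alone, 34, 36 and 50 in WT coculture and 5, 12 and 5 in sgPrrx1 coculture. The WT libraries lay above all others, and those of sgPrrx1 overlapped cells alone. Of the 7 members tested in LLC1, 1 passed by edgeR, Fzd1, with a log2 fold change of 3.75 from alone to WT coculture (SE 0.725, adjusted p = 0.0187), where 4.25% of 12873 genes were higher and 4.58% lower. By voom Wnt5a, Wnt5b and Fzd7 passed in that comparison as well as Fzd1, and an edgeR fit of only the groups compared also called Fzd7 (adjusted p = 0.0348). Fzd1 did not pass without replicate 1 or 2 of alone or without any single WT library (adjusted p from 0.0507 to 0.0948). The log2 difference of sgPrrx1 from WT coculture, -2.52 (SE 0.649), had an adjusted p of 0.240 by edgeR and 0.00548 by DESeq2.

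Fzd2 and Fzd7, further Frizzled receptors, changed little in size. In 168FARN, Fzd2 stood at 30.3, 30.1 and 27.9 CPM alone, 34.9, 32.2 and 37.4 CPM with WT fibroblasts and 28.3, 27.3 and 27.3 CPM with sgPrrx1 fibroblasts. Its WT libraries were the highest, with a log2 fold change of 0.24 from alone (SE 0.0531, adjusted p = 0.00211) and -0.33 from WT to sgPrrx1 coculture (SE 0.0532, adjusted p = 0.000265), while sgPrrx1 coculture and alone overlapped (-0.09, SE 0.0538, adjusted p = 0.185). Fzd7 stood at 65.5, 62.3 and 64.0 CPM alone, 56.9, 56.5 and 55.9 CPM with WT fibroblasts and 47.6, 48.2 and 52.0 CPM with sgPrrx1 fibroblasts. It fell in both cocultures and the groups did not overlap: the log2 fold change was -0.18 for WT against alone (SE 0.0364, adjusted p = 0.00117), -0.37 for sgPrrx1 against alone (SE 0.0366, adjusted p = 9.34e-06) and -0.19 for sgPrrx1 against WT (SE 0.0365, adjusted p = 0.000794).

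In LLC1, Fzd2 ranged from 8.01 to 9.48 CPM alone, 6.49 to 7.73 in WT and 7.0 to 10.2 in sgPrrx1 coculture. The adjusted p-values were 0.387, 0.846 and 0.633 for WT against alone, sgPrrx1 against alone and sgPrrx1 against WT. Fzd7 stood at 10.5, 9.85 and 9.0 CPM alone, 8.06, 8.25 and 8.02 CPM with WT fibroblasts and 7.39, 7.37 and 3.15 CPM with sgPrrx1 fibroblasts. Every coculture library was below every library of cells alone, with log2 fold changes of -0.27 (SE 0.279, adjusted p = 0.624) for WT and -0.71 (SE 0.280, adjusted p = 0.176) for sgPrrx1. Such separation, in either direction, was found for 53.2% and 32.4% of all LLC1 genes tested in these comparisons. Without replicate 3 of sgPrrx1, Fzd7 was lower than alone in WT coculture (-0.26, SE 0.0698, adjusted p = 0.0166) and in sgPrrx1 coculture (-0.40, SE 0.0784, adjusted p = 0.00739). The longest exact runs shared by the Frizzled transcripts were 47 bases (Fzd1 with Fzd2 or Fzd7) and 38 bases (Fzd2 with Fzd7), below the read length.

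Ror2, the receptor tyrosine kinase that binds Wnt5a, had opposite starting points in the lines. In 168FARN it had 0 counts in all 3 libraries alone, 79, 75 and 59 in WT coculture and 14, 21 and 19 in sgPrrx1 coculture. The groups did not overlap. The level was at least 20.1-fold higher in WT coculture than alone (1.14 ± 0.0529 CPM, SD, n = 3, adjusted p = 1.44e-06) and at least 5.67-fold higher in sgPrrx1 coculture than alone (0.322 ± 0.0295 CPM, adjusted p = 5.67e-05). From WT to sgPrrx1 coculture it fell by 1.81 on the log2 scale (SE 0.263, adjusted p = 0.000301). That fall did not pass when its size had to exceed a log2 value of 1 (adjusted p = 0.0592). In LLC1 it stood at 6.28, 6.54 and 6.29 CPM alone, 6.33, 5.44 and 6.01 CPM with WT fibroblasts and 6.04, 5.98 and 5.75 CPM with sgPrrx1 fibroblasts, and the log2 difference between the cocultures was -0.00 (SE 0.0989, adjusted p = 0.996).

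**Figure D3:**
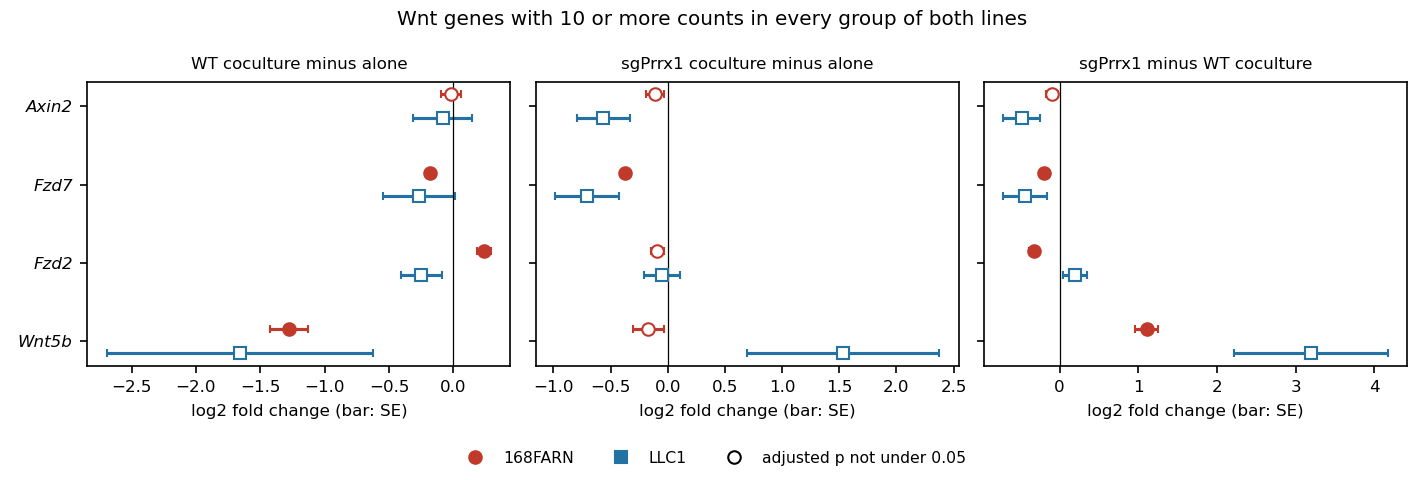
Log2 fold change (horizontal axis, bars 1 SE, each panel on its own scale) of the 4 genes with 10 or more counts in every group of both lines, for the 3 comparisons. Circles are 168FARN, squares LLC1, and open symbols did not pass. Wnt5b lies left of 0 in WT coculture and right of 0 between the cocultures in both lines, and the LLC1 bars are longer than the 168FARN bars.

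Sfrp1 and Sfrp2, secreted Wnt-binding proteins, appeared in 168FARN with either kind of CAF. Sfrp2 gave 3, 0 and 0 counts alone, 226, 268 and 168 in WT coculture and 271, 283 and 267 in sgPrrx1 coculture, or 3.51 ± 0.362 and 4.97 ± 0.602 CPM in the cocultures (SD, n = 3). The ratio to cells alone, which rests on 3 counts, was 189 in WT coculture (95% Poisson interval 64.5 to 920, adjusted p = 5.51e-08) and 265 in sgPrrx1 coculture (90.3 to 1287, adjusted p = 4.46e-08). The sgPrrx1 libraries lay above the WT libraries by a log2 fold change of 0.50 (SE 0.181, adjusted p = 0.0346). That call was lost with library totals in place of scaling factors (adjusted p = 0.0524), and without replicate 1 or 3 of WT (0.132 and 0.0946) or replicate 1 or 2 of sgPrrx1 (0.145 and 0.0708). With the replicate number as a block its adjusted p was 0.0568.

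Sfrp1 had 0 counts in all 3 libraries of 168FARN alone, 8, 25 and 19 in WT coculture and 28, 10 and 17 in sgPrrx1 coculture. It was at least 5.08-fold higher in WT coculture (adjusted p = 0.00242) and at least 6.11-fold higher in sgPrrx1 coculture (adjusted p = 0.00256) than alone, and the cocultures overlapped (log2 difference 0.26, SE 0.594, adjusted p = 0.733). Dkk3, a divergent member of the Dickkopf family of secreted proteins, gave 9, 14 and 13 counts alone, 20, 28 and 26 in WT coculture and 13, 40 and 38 in sgPrrx1 coculture. The log2 fold change over cells alone was 0.84 (SE 0.432, adjusted p = 0.112) with WT and 1.25 (SE 0.424, adjusted p = 0.0298) with sgPrrx1 CAFs. The second did not pass without replicate 1 or 2 of alone (0.09 and 0.0786) or replicate 2 or 3 of sgPrrx1 (0.107 and 0.0998). In LLC1 these 3 genes had few counts and were not tested: Sfrp1 had 2, 0 and 4 counts in WT coculture and 0 elsewhere, Sfrp2 had 2 counts in 1 WT and 8 in 1 sgPrrx1 library, and Dkk3 had 3 in 1 alone and 5 in 1 WT library.

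Axin2, the beta-catenin target and scaffold of the complex that degrades beta-catenin, did not pass in any comparison between the groups of a line. In 168FARN it stood at 6.51, 6.25 and 6.01 CPM alone, 6.37, 6.10 and 6.05 CPM with WT fibroblasts and 5.80, 6.14 and 5.42 CPM with sgPrrx1 fibroblasts, and all 3 groups overlapped. The log2 fold changes were -0.02 for WT against alone (SE 0.0776, adjusted p = 0.843), -0.11 for sgPrrx1 against alone (SE 0.0784, adjusted p = 0.256) and -0.09 for sgPrrx1 against WT (SE 0.0778, adjusted p = 0.318). In LLC1 it stood at 0.749, 0.860 and 0.962 CPM alone, 0.894, 0.848 and 0.686 CPM with WT fibroblasts and 0.678, 0.599 and 0.445 CPM with sgPrrx1 fibroblasts. The sgPrrx1 libraries were the lowest, by a log2 difference of -0.57 from alone (SE 0.232, adjusted p = 0.188) and -0.48 from WT (SE 0.233, adjusted p = 0.445). Without replicate 3 the latter was -0.34 (SE 0.239, adjusted p = 0.366).

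In LLC1, no member passed by edgeR in the comparisons that involve the sgPrrx1 libraries. For sgPrrx1 against alone, 0 of 7 passed, against 2.01% of all genes higher and 2.31% lower by edgeR. At an unadjusted p under 0.05 there were 2, by DESeq2 0 and by limma voom with quality weights 1 (Fzd7). For sgPrrx1 against WT, 0 of 7 passed, against 0% higher and 0.0544% lower by edgeR. At an unadjusted p under 0.05 there were 3, by DESeq2 1 (Fzd1) and by voom 3 (Wnt5a, Wnt5b and Fzd1). Voom also called 22 of 49 other Wnt pathway genes between the cocultures. The share of all genes was not computed for these other tools and thresholds. Leaving out replicate 3 of sgPrrx1 raised the background to 22.0% higher and 22.2% lower for WT against alone, 12.5% and 14.2% for sgPrrx1 against alone, and 2.94% and 2.75% for sgPrrx1 against WT. In that setting Fzd1 was higher in WT coculture (3.76, SE 0.729, adjusted p = 0.00369), Fzd7 was lower in both cocultures, and 0 members passed between the cocultures, with Fzd1 at an adjusted p of 0.0706 and Wnt5b at 0.101. Fzd2, Ror2 and Axin2 passed in none of the 3 comparisons (adjusted p from 0.0916 to 0.930). Fibroblast markers in LLC1 summed to 2366 to 2455 CPM alone, 1870 to 1925 in WT and 2405 to 2736 in sgPrrx1 coculture; of 17 tested, the numbers higher and lower were 4 and 4 for WT against alone, 4 and 1 for sgPrrx1 against alone, and 0 and 3 for sgPrrx1 against WT. Without replicate 3 of sgPrrx1 these numbers were 7 and 7, 5 and 2, and 5 and 3, of 18 tested. Col6a3 had no counts in LLC1 alone, and Thy1, Fap and Mfap5 had none in sgPrrx1 coculture. Macrophage markers summed to 16.0 to 17.3, 36.5 to 38.3 and 36.5 to 64.9 CPM in the 3 groups, and endothelial markers to under 1 CPM. Of 2 macrophage markers tested, 1 (Cd68) was higher than alone in WT (1.18) and in sgPrrx1 coculture (1.51), and 0 differed between the cocultures. The 1 epithelial marker tested, Krt18, was higher in WT coculture than alone (adjusted p = 0.0282) and passed in neither other comparison. Without replicate 3 of sgPrrx1, 2 of 3 epithelial and 2 of 2 macrophage markers were higher in WT coculture than alone. For WT against alone the 4 fibroblast markers that rose were Col1a1, Col1a2, Dcn and Fbln2, by 4.51, 8.14, 3.40 and 7.44 on the log2 scale, and the 4 that were lower were Col3a1 (-0.55), Col6a1 (-0.58), Pdgfrb (-1.23) and Fbln1 (-0.43). Col1a1, Col1a2 and Fbln2 were also the 3 markers lower with sgPrrx1 than with WT fibroblasts. The part of all these in the LLC1 values was not tested.

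The lines differed in which Wnt genes they held before any fibroblast was added. In a joint fit of all 18 libraries, Wnt5b, Fzd2, Fzd7, Axin2 and Dkk3 were higher in 168FARN alone than in LLC1 alone, by log2 differences of 4.11, 1.65, 2.60 and 2.76 for the first 4. For Dkk3, with 36 counts in 168FARN and 3 in LLC1, all in 1 library, the ratio was 16.5 (95% Poisson interval 5.23 to 84.0). Wnt5a and Ror2, at 0 counts in 168FARN alone, were lower than in LLC1 alone. Fzd1, with 1 count in 168FARN alone, did not pass by edgeR (adjusted p = 0.0780), and passed as lower in 168FARN by voom (0.0159) and by edgeR without replicate 1 of 168FARN alone (0.0384) or replicate 3 of LLC1 alone (0.0119). In that comparison 37.7% of 14344 genes were higher and 33.2% lower. The change from alone to WT coculture was higher in 168FARN than in LLC1 for Wnt5a (adjusted p = 0.000201), Fzd1 (adjusted p = 0.00258), Ror2 (adjusted p = 9.68e-10) and Fzd2 (log2 difference 0.49, SE 0.159, adjusted p = 0.0310), 4 members against 15.7% of genes higher and 13.7% lower. For Sfrp2, at 0 counts in LLC1 alone, edgeR gave no call, while DESeq2 (adjusted p = 0.00668) and voom (adjusted p = 0.00276) called its change higher in 168FARN. For Wnt5b the difference was 0.38 by edgeR (adjusted p = 0.811) and 2.79 by voom (adjusted p = 0.00437), and it passed without replicate 3 of LLC1 WT (adjusted p = 0.00202), with LLC1 WT then at 0 counts and no size given. The change from WT to sgPrrx1 coculture was lower in 168FARN for Wnt5a (adjusted p = 0.000564), Ror2 (-1.79, SE 0.162, adjusted p = 1.01e-05) and Fzd2 (-0.51, SE 0.159, adjusted p = 0.0370), 3 members against 8.24% higher and 11.0% lower. The first Fzd2 difference was lost without any library of 168FARN alone, replicate 1 or 3 of 168FARN WT, replicate 2 or 3 of LLC1 alone, or replicate 2 of LLC1 WT (adjusted p from 0.0571 to 0.0912). The second was lost without any library of 168FARN alone or sgPrrx1, replicate 1 or 3 of 168FARN WT, replicate 2 of LLC1 alone, or replicate 1 or 2 of LLC1 WT (adjusted p from 0.0518 to 0.0946), and with only the groups compared (0.0942). The difference for Wnt5b in sgPrrx1 against WT (-2.05, SE 0.808) had an adjusted p of 0.0935 by edgeR, 0.00192 by DESeq2 and 0.000204 by voom. Without replicate 3 of LLC1 WT it was 0.000215, with LLC1 WT then at 0 counts. In the same difference Fzd1 was higher in 168FARN by DESeq2 (1.13, adjusted p = 0.0417) but did not pass by edgeR (adjusted p = 0.202). Dkk3, at 0 counts in LLC1 sgPrrx1 coculture, was higher in 168FARN by voom (adjusted p = 0.0435) and did not pass by edgeR (adjusted p = 0.172). Line, fibroblast source and count table cannot be told apart here.

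Per kilobase of transcript, the level was highest for Fzd7 and Fzd2 in both lines grown alone. In 168FARN alone, Fzd7 (13.3 ± 0.334 CPM per kb, SD, n = 3) stood above Fzd2 (8.12 ± 0.362), Axin2 (1.47 ± 0.0589), Wnt5b (1.14 ± 0.0687) and Dkk3 (0.0666 ± 0.0124), and none of these neighbours overlapped. In WT coculture the order was Fzd7, Fzd2, Sfrp2 (1.75 ± 0.181), Axin2, Fzd1 (1.04 ± 0.0897), Wnt5b, Ror2, Dkk3, Wnt5a and Sfrp1, with only the last 3 overlapping their neighbours. In sgPrrx1 coculture Sfrp2 (2.48 ± 0.301 CPM per kb) kept the place after Fzd2, Wnt5b (1.02 ± 0.0539) stood above Fzd1 (0.386 ± 0.0292), and Dkk3, Ror2 and Sfrp1 overlapped in turn. In LLC1 alone the order was Fzd2 (2.40 ± 0.205 CPM per kb), Fzd7 (2.04 ± 0.156), Ror2 (1.60 ± 0.0379), Axin2 (0.201 ± 0.0251), Wnt5a (0.142 ± 0.0251) and Wnt5b (0.0607 ± 0.0223), without overlap between neighbours. Wnt5a and Axin2 overlapped in WT coculture of LLC1, and in its sgPrrx1 coculture Ror2 overlapped Fzd7, and Wnt5b, Axin2 and Wnt5a overlapped in turn.

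The genes whose levels followed Wnt5a most closely over the 9 libraries of 168FARN, by Pearson correlation of log2 CPM, were Syt13 (0.9999), Srpx2 (0.9993) and Slc4a7 (0.9986). Syt13 and Srpx2 also averaged 0 CPM in cells alone and in sgPrrx1 coculture, against 1.04 and 1.66 CPM in WT coculture. In LLC1 they were Trim6 (0.982), Herc4 (0.977) and Mapk8 (0.967). For Axin2 the closest were Rundc1 (0.942), Arhgef18 (0.924) and Srsf11 (0.914) in 168FARN and Zfp354b (0.987), Gm10509 (0.944) and Amt (0.938) in LLC1. The points of each correlation share libraries, groups and scaling, and all genes past a count minimum were searched, so these are descriptions.

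Of 89 other Wnt pathway genes, 52 were tested in 168FARN and 49 in LLC1. In 168FARN, 30 rose and 7 fell from cells alone to WT coculture, 13 rose and 16 fell from alone to sgPrrx1 coculture, and 2 were higher and 31 lower with sgPrrx1 than with WT CAFs. The shares of all genes higher and lower were 33.4% and 30.7%, 25.7% and 24.1%, and 26.9% and 33.1% in the same comparisons. The median log2 fold change of the 52 was 0.20 for WT against alone and -0.20 for sgPrrx1 against WT, beside 0.01 and -0.03 over all genes tested. In WT coculture, 6 of 8 tested receptors and co-receptors were higher and 1 lower, 10 of 16 genes of the beta-catenin machinery were higher and 1 lower, and 3 of 8 planar polarity genes were higher and 1 lower. In sgPrrx1 coculture against alone, 2 of the 8 receptors were higher and 6 lower, 2 of the 16 machinery genes higher and 4 lower, and 1 of the 8 planar polarity genes higher and 2 lower. With sgPrrx1 against WT CAFs, 6 of the 8 receptors, 11 of the 16 machinery genes and 6 of the 8 planar polarity genes were lower, and none of them was higher. The smaller lists had fewer lower calls in that comparison, 2 of 5 Wnt ligands, 1 of 5 genes of the R-spondin system, 1 of 2 secreted inhibitors, 1 of 2 secretion genes with the other higher, and 3 of 6 beta-catenin targets with 1 higher. In the same comparison 19 of 20 fibroblast markers were lower, and their part in these counts was not tested.

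Lgr6, a receptor for the Wnt-enhancing R-spondins, rose most by the naming rule: the log2 fold change was 2.99 in WT coculture (SE 0.114, adjusted p = 3.01e-09) and 1.87 in sgPrrx1 coculture (SE 0.118, adjusted p = 2.61e-07) against alone, and -1.12 between them (SE 0.0978, adjusted p = 2.68e-06). The cell surface protein Cd44 and the transcription factor Myc, both known beta-catenin targets, rose by 1.71 and 1.13 with WT CAFs and by 0.83 and 0.51 with sgPrrx1 CAFs. The sgPrrx1 libraries of Cd44 stood at 370, 798 and 360 CPM against 281 to 291 CPM alone, and without replicate 2 its rise was 0.35 (SE 0.0255, adjusted p = 2.89e-06). Porcn, which attaches the lipid to Wnt proteins, was lower with sgPrrx1 than with WT CAFs (-0.94, SE 0.101, adjusted p = 1.35e-05). Wls, which carries Wnt proteins to the cell surface, fell by 0.53 in WT coculture and was 0.13 higher with sgPrrx1 than with WT CAFs. Apcdd1, a membrane inhibitor and target of the pathway, fell by 0.66 in WT coculture and was 0.46 higher with sgPrrx1. Dvl1, the adaptor below Frizzled, fell by 0.64 and 0.65 in the cocultures with WT and sgPrrx1 CAFs, and in the latter the co-receptor Lrp5 fell by 0.41 and the polarity receptor Ptk7 by 0.43.

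In LLC1 the other pathway genes gave 0 higher and 5 lower for WT against alone, 0 and 1 for sgPrrx1 against alone, and 0 and 0 between the cocultures, beside 4.25% and 4.58%, 2.01% and 2.31%, and 0% and 0.0544% of all genes. Other tools and thresholds gave more. For WT against alone 13 were at an unadjusted p under 0.05, 7 passed by DESeq2 and 31 by voom. For sgPrrx1 against alone these counts were 9, 4 and 23, and between the cocultures 7, 1 and 22. The shares of all genes given here are those of edgeR. Myc fell by 0.77 (SE 0.0945, adjusted p = 0.00411) with WT and by 0.83 (SE 0.0946, adjusted p = 0.00619) with sgPrrx1 fibroblasts. Lrp5 fell by 0.76 with WT fibroblasts, and Kremen1, a receptor for Dickkopf proteins, by 0.58. The Kremen1 call was lost without any single library of alone or WT coculture (adjusted p from 0.0649 to 0.0862). Without replicate 3 of sgPrrx1 the 3 comparisons gave 4 higher and 19 lower, 5 higher and 8 lower, and 4 higher and 0 lower, of 50 tested, beside 22.0% and 22.2%, 12.5% and 14.2%, and 2.94% and 2.75% of all genes.

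**Figure D4:**
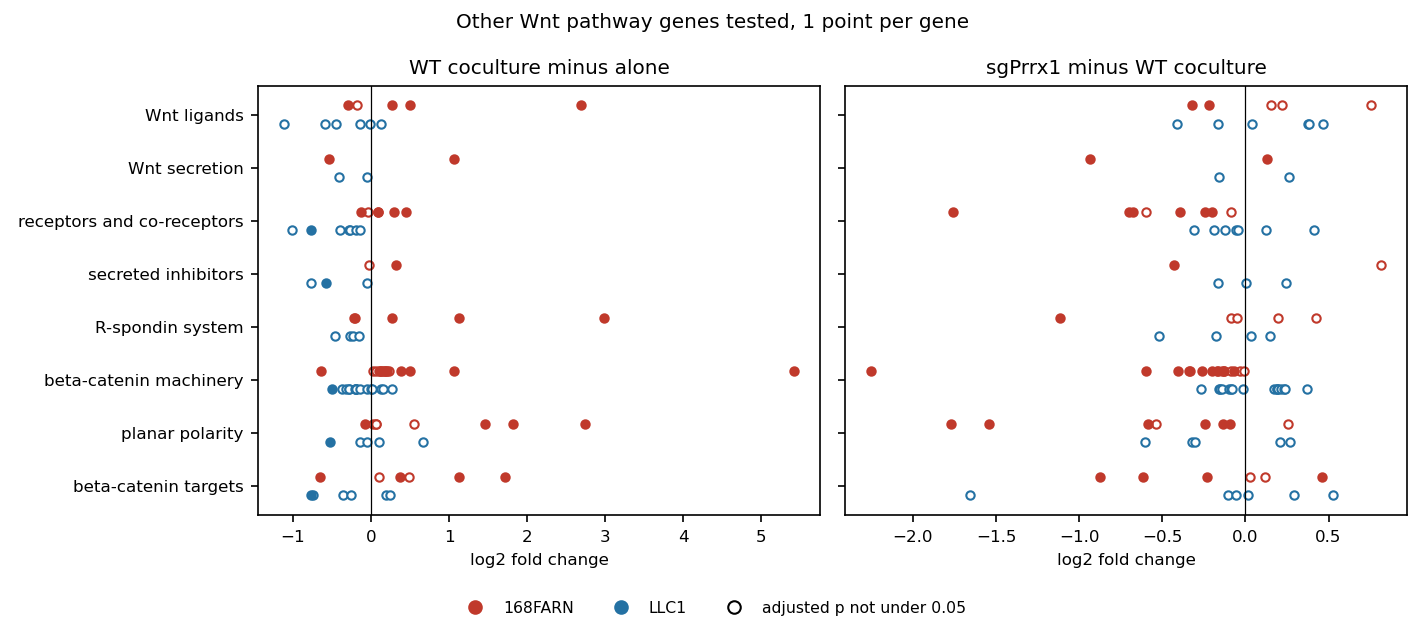
Log2 fold change (horizontal axes) of the other Wnt pathway genes tested, by list, for WT coculture against alone (left) and sgPrrx1 against WT coculture (right). Each point is a gene, red for 168FARN and blue for LLC1, and open points did not pass. Fzd3 and Fzd8, at 0 counts in 168FARN alone, are left out of the left panel; on the right most filled red points lie left of 0.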

How the data were processed

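RNA of sorted cancer cells from 18 libraries was sequenced as 100 bp paired reads. Raw counts by gene symbol were deposited by the authors in 1 table per line, made, per their methods and processing notes, with Trimmomatic, STAR (mm10) and HTSeq. The study's supplement names ComBat-seq for batch correction after counting; whether it was applied to the deposited counts, the strand setting and the annotation are not given in the sources used here, and without strand reads of overlapping antisense genes cannot be told apart. All columns were used, and groups came from the sample titles.

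The filter filterByExpr retained 13540 of 24455 genes (168FARN) and 12873 of 24532 (LLC1), which were scaled by TMM and fitted per line with a mean for each group in edgeR 4.0.16 (R 4.3.3). Tests were two-sided quasi-likelihood F tests with Benjamini-Hochberg adjustment over all genes tested and a threshold of 0.05. Each SE is the absolute log2 fold change divided by the square root of F, so it was derived from the test. Line differences were tested as interactions in a joint fit of 14344 genes. CPM used TMM-scaled totals; levels per kb used the longest protein-coding transcript. DESeq2 1.42.0, limma 3.58.1 and other settings were alternatives, and the scripts were tested on simulated data. Folds against groups at 0 counts used 3 counts per library, and ratios with 1 to 3 counts an exact Poisson interval, covering counting error only. No replicates agreed within sampling noise (lowest chi-square per degree of freedom 10.6 in 168FARN, 26.5 in LLC1).

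The members, pathway lists and marker lists were chosen with earlier results of these data known. Of the other pathway genes, those named were the 3 largest rises and falls past the threshold per line and comparison, with a mean of at least 100 counts. Genes most like Wnt5a and Axin2 were the 3 with the highest correlation among genes with a mean of at least 20 counts. The limit of 1% used to set Wnt genes beside fibroblast markers, and the members and markers named singly, were chosen after the values were seen. Leaving out each library for the named pathway genes, and replicate 3 of LLC1 sgPrrx1 for the marker counts, was likewise added afterwards.

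Same-numbered libraries of LLC1 alone and LLC1 sgPrrx1 coculture deviated together (correlations 0.131, 0.249 and 0.419, all above a limit of 0.1), a pairing seen in the data and not given by the labels; no other pair of groups passed that limit at every number.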

Additional observations from a re-analysis of the deposited data

Results flagged for a closer look

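The change from cells alone to WT coculture differed between 168FARN and LLC1, by interaction terms in the joint edgeR fit, for Wnt5a (adjusted p = 0.000201), Fzd1 (adjusted p = 0.00258), Fzd2 (adjusted p = 0.0310) and Ror2 (adjusted p = 9.68e-10). Each was higher in 168FARN. The change from WT to sgPrrx1 coculture differed for Wnt5a (adjusted p = 0.000564), Fzd2 (adjusted p = 0.0370) and Ror2 (adjusted p = 1.01e-05), and each was lower in 168FARN. Both Fzd2 calls were lost without single libraries (adjusted p up to 0.0912 for the first and 0.0946 for the second), and the second with only the groups compared (0.0942). For Wnt5a, and for Ror2 in the first change, the 168FARN values rest on groups at 0 counts, and for Fzd1 on 1 count in cells alone. The second Ror2 change compares 79, 75 and 59 counts in 168FARN WT coculture with 14, 21 and 19 in sgPrrx1 coculture. Line, fibroblast source and count table cannot be told apart.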

How the results depend on the processing

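Over the alternatives run, 1601 gene values kept their call, 49 lost it, 25 gained it, and none of the calls changed direction. Requiring 10 counts in every library removed genes without counts in a group, and left 3, 1 and 3 members past the threshold in 168FARN (WT against alone, sgPrrx1 against alone, sgPrrx1 against WT), 0 for WT against alone in LLC1, and 1, 1 and 3 in the line differences (WT against alone, sgPrrx1 against WT, cells alone). Testing against a log2 fold change of 1 left 5 members for WT against alone and 1 for sgPrrx1 against WT in 168FARN, with 7, 3 and 0 other pathway genes in its 3 comparisons, and in LLC1 0 members and 0 other genes for WT against alone and 0 other genes for sgPrrx1 against alone. In LLC1, voom with quality weights called 4, 1 and 3 members and 31, 23 and 22 other genes. DESeq2 called 4 other genes for sgPrrx1 against alone, and 1 member and 1 other gene for sgPrrx1 against WT. Library totals alone gave 3 other genes for sgPrrx1 against alone. Fitting only the groups compared gave 2 members and 21 other genes for WT against alone and 0 other genes for sgPrrx1 against alone. For the line difference in sgPrrx1 against WT, DESeq2 and voom each called 5 members. Apart from the filter, the cause was not tested. Shares of all genes called were computed only for the main edgeR fits and for LLC1 without replicate 3 of sgPrrx1. The other counts in this section therefore have no background beside them.

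Leaving out 1 library at a time gave 8 to 8, 5 to 6 and 6 to 7 members in the 3 comparisons of 168FARN and 31 to 37, 25 to 31 and 28 to 33 other genes. In LLC1 it gave 0 to 2, 0 to 1 and 0 to 0 members and 2 to 23, 1 to 13 and 0 to 4 other genes. The line differences ranged from 3 to 5 (WT against alone), 2 to 4 (sgPrrx1 against WT) and 7 to 8 members (cells alone). The highest LLC1 counts came without replicate 3 of sgPrrx1.

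Same-numbered replicates correlated at -0.00870 on average in 168FARN (range -0.0734 to 0.0627) and 0.151 in LLC1 (-0.0414 to 0.419). The numbers paired LLC1 alone with LLC1 sgPrrx1 coculture, where the block left 0 members and 1 other gene past the threshold, as without it, and no other groups. With the replicate block, 8, 6 and 6 members passed in 168FARN and 1, 0 and 0 in LLC1, with 38, 30 and 31 and 5, 1 and 0 other genes, and 4, 3 and 8 members in the line differences.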
